A study of Mus musculus with 1024 samples.

Results

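The lysophospholipid genes were examined in single aortic cells of WT and KO mice. They are 9 of the 24422 genes in the count table and were chosen as a named list: the lysophosphatidic acid (LPA) receptors Lpar1, Lpar4 and Lpar6, the sphingosine 1-phosphate (S1P) receptors S1pr1, S1pr2 and S1pr3, the enzymes Enpp2 and Sphk1, and the exporter Spns2. Cells came from aortas of mice aged 3 months, and all of them carried the strain label Amotl2flow/flow / Cdh5-RREert /ROSA26-EYFP, that is, floxed Amotl2, a tamoxifen-inducible Cre driven by the endothelial Cdh5 promoter, and an EYFP reporter that marks cells in which Cre has acted. After depletion of Cd45+ cells on beads, cells were sorted into 384-well plates as Cd31+Cd45- (labelled Endothelial) or Cd31-Cd45- (labelled DoubleNegative) and sequenced with Smart-seq2, which reads full-length cDNA of 1 cell per well. There were 2 preparations (sorts) of each genotype on 3 plates, the labels name no mouse, and the preparation is the replicate here. In preparation 1, WT and KO wells were on separate plates, and the effects of plate and genotype cannot be told apart, whereas in preparation 2 they shared 1 plate.

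LPA and S1P are small signalling lipids that circulate in blood and act through G protein-coupled receptors. Autotaxin, encoded by Enpp2, makes LPA outside the cell from lysophosphatidylcholine, whereas S1P is made inside the cell by sphingosine kinases such as Sphk1 and is carried out of endothelial cells by Spns2. In the vessel wall S1pr1 is the classical endothelial S1P receptor and couples to Gi, which favours junction stability, whereas S1pr2 and S1pr3 also couple to Gq and G12/13.

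Of 1024 wells, 784 reached 20000 gene counts and 500 genes with a count and were kept, 676 Endothelial and 108 DoubleNegative. Summed over wells, the 4 Endothelial groups held 8470943 to 94881185 counts and the 4 DoubleNegative groups 926398 to 9435015. EYFP, the check of the labels, was at 113 and 85.5 CPM (counts scaled to the total gene counts of the sum) in the KO Endothelial sums of preparations 1 and 2 and at 2.38 and 0.353 CPM in the WT sums. Amotl2 was at 51.9 and 45.7 CPM in KO and at 59.9 and 94.0 CPM in WT Endothelial wells, counted over the whole gene, so that a deleted exon is not resolved. All 10 endothelial markers had counts in each Endothelial sum (14408 to 17022 CPM together), against 24.8 to 1233 CPM in the DoubleNegative sums. The highest of these, WT preparation 2, held 1 endothelial-like well among its 12. Clustering of the wells gave 7 clusters, of which 5 were endothelial-like, 1 smooth muscle-like and 1 fibroblast-like by markers. Of the Endothelial wells, 660 lay in endothelial-like clusters, and of the DoubleNegative wells 70 were smooth muscle-like and 37 fibroblast-like. Cluster 2, with 156 wells, held 155 wells of WT preparation 1.

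S1pr1 stood far above the other members in Endothelial wells once levels were divided by exon length. Its level per kilobase of merged exon was 138 ± 38.6 CPM per kb (SD, n = 4 sums), followed by Lpar6 at 35.0 ± 6.22 and Lpar1 at 14.3 ± 6.65 CPM per kb. The 4 sums of these 3 receptors did not overlap (109 to 195, 26 to 39.9 and 6.91 to 22.3 CPM per kb). Spns2 (1.45 ± 1.25), Enpp2 (1.40 ± 1.12), S1pr2 (1.33 ± 0.563) and Lpar4 (1.20 ± 0.570 CPM per kb) followed well below Lpar1 and did not differ beyond their spread. Sphk1 (0.0686 ± 0.0671) and S1pr3 (0.0437 ± 0.0874 CPM per kb) were lowest, and their ranges overlapped as well. In DoubleNegative wells the order of the means was another one, with Lpar1 (23.6 ± 22), S1pr2 (4.28 ± 2.87) and Lpar4 (3.43 ± 4.17 CPM per kb) first. Their ranges overlapped with each other and with those of Lpar6 and Sphk1, and those of S1pr2 and Lpar4 also with that of Enpp2. Lpar4 rested on 63 counts in 4 of 108 wells. Pooled over the gate and before division by exon length, it was at 3.50 CPM. That was below Sphk1 (13.1), Enpp2 (7.40) and Lpar6 (6.45 CPM).

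**Figure D1:**
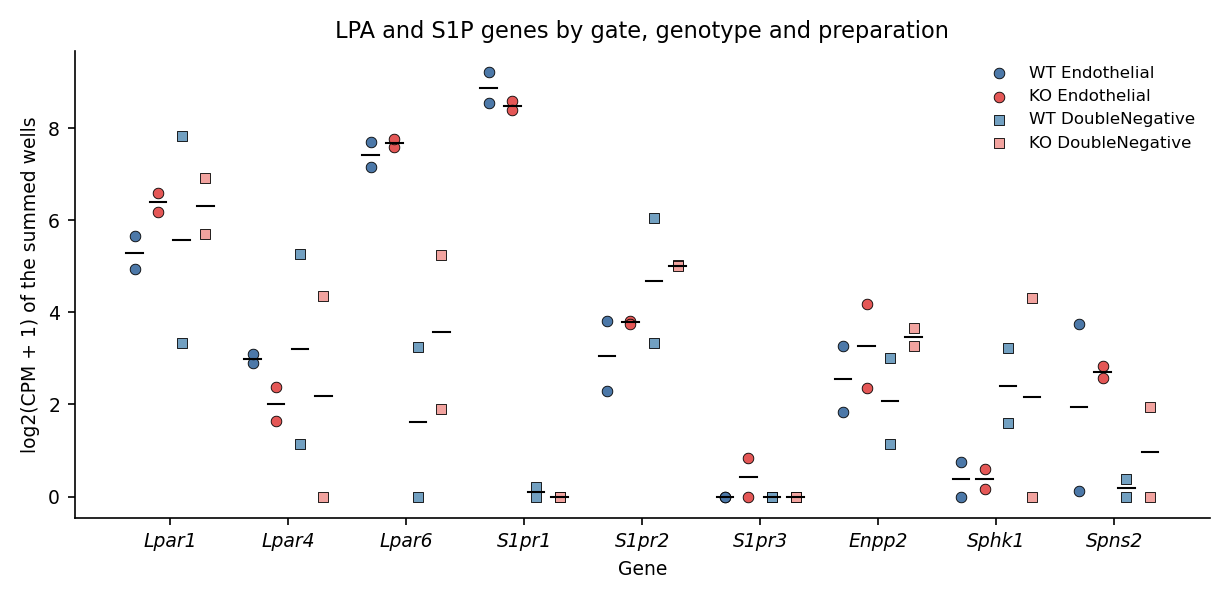
Level of each gene as log2(CPM + 1), where each point is the sum of all kept wells of 1 genotype, gate and preparation and each bar the mean of the 2 preparations. S1pr1 and Lpar6 are high in all 4 Endothelial sums and low or absent in all 4 DoubleNegative sums, whereas Lpar1 overlaps between the gates.

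Among the LPA receptors, Lpar6 was the gene of the endothelial gate. Lpar6 is a receptor of the P2Y family that couples to G12/13 and is best known from hair and endothelium. It lies on chromosome 14 (GRCm38, 73237895 to 73243294, + strand) as a single exon within the span of Rb1, which is on the opposite strand. Of its exon length, 7.56% is shared with Rb1 exons, and the strand setting of the counting is not given in the sources used here. Lpar6 was at 141 and 207 CPM in the WT Endothelial sums and at 192 and 215 CPM in the KO sums of preparations 1 and 2. In DoubleNegative wells it was at 8.44 and 0 CPM in WT and at 2.76 and 36.7 CPM in KO. All 4 Endothelial sums thus lay above all 4 DoubleNegative sums. A count of Lpar6 was found in 371 of 676 Endothelial wells (54.9%, 95% exact binomial interval 51.0 to 58.7%) and in 4 of 108 DoubleNegative wells (3.70%, 1.02 to 9.21%). Such intervals cover counting error only. With every well thinned to 20000 counts the shares were 50% and 3.70%. The share of Endothelial wells with Lpar6 was higher in preparation 2 of either genotype. It was 53.2% in WT and 44.7% in KO of preparation 1 and 80.0% and 79.8% in preparation 2.

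Lpar4, an LPA receptor with known roles in vessel formation, was rare in both gates. Its Endothelial sums were 6.41 and 7.59 CPM in WT and 4.23 and 2.12 CPM in KO. Its DoubleNegative sums were 1.21 and 37.4 CPM in WT and 0 and 19.4 CPM in KO. These values rested on few wells: 32 of 676 Endothelial wells (4.73%) and 4 of 108 DoubleNegative wells had a count, and 1 well held between 31.6% and 77.8% of the Lpar4 counts of each Endothelial sum. Without that well in each sum the mean Endothelial level was 2.48 CPM in place of 5.09 CPM.

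Lpar1, the most widely expressed LPA receptor and one that couples to Gi, Gq and G12/13, was split between a part of the endothelial cells and the fibroblast-like cells. It lies on chromosome 4 (58435255 to 58553898, - strand), and no exon of another gene overlaps its exons in the annotation used. In Endothelial wells Lpar1 was at 29.6 and 49.1 CPM in WT and at 71.5 and 95.7 CPM in KO. In DoubleNegative wells it was at 225 and 9.11 CPM in WT and at 120 and 50.7 CPM in KO. The gates overlapped. The fibroblast-like wells among the DoubleNegative wells were 26 of 42 and 1 of 12 in WT and 9 of 40 and 1 of 14 in KO. In preparation 1 these fibroblast-like wells held 1495 of 1495 Lpar1 counts in WT and 1122 of 1132 in KO. Within them Lpar1 was at 360 CPM in WT and at 514 CPM in KO. The part of the fibroblast-like wells in the differences between these sums was not tested. By cluster, Lpar1 was at 401 CPM in the fibroblast-like cluster, with a count in 37 of 39 wells, and at 0.688 CPM in the smooth muscle-like cluster, with a count in 2 of 84 wells.

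Of the S1P receptors, S1pr1 marked the endothelial gate nearly without exception. It lies on chromosome 3 (115710433 to 115715072, - strand). It was at 594 and 372 CPM in the WT Endothelial sums and at 384 and 333 CPM in the KO sums. In DoubleNegative wells S1pr1 had 1 count in all, in WT preparation 1 (0.151 CPM), and was at 0 in the other 3 sums. The level in Endothelial wells was at least 122-fold higher in WT of preparation 2, at least 1208-fold higher in KO of preparation 1 and at least 103-fold higher in KO of preparation 2, with 3 counts per sum in place of 0. A count of S1pr1 was found in 650 of 676 Endothelial wells (96.2%, 94.4 to 97.5%) and in 1 of 108 DoubleNegative wells (0.926%, 0.0234 to 5.05%). For comparison, Cdh5, the defining cadherin of endothelial junctions, had a count in 94.5% of Endothelial wells and in 2.78% of DoubleNegative wells.

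S1pr2, which couples mainly to G12/13, was highest in the fibroblast-like wells. Its Endothelial sums were 3.91 and 13.1 CPM in WT and 13 and 12.5 CPM in KO. Its DoubleNegative sums were 64.7 and 9.11 CPM in WT and 31.4 and 31.3 CPM in KO. The DoubleNegative sum of WT preparation 2 lay among the Endothelial values and the other 3 above them. In preparation 2 the WT and the KO DoubleNegative sum each held 1 fibroblast-like well. In the KO sum of preparation 2, 20 of the 29 S1pr2 counts came from 2 smooth muscle-like wells. By cluster S1pr2 was at 112 CPM in the fibroblast-like wells, with a count in 26 of 39, and between 4.15 and 15.7 CPM in all other clusters.

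S1pr3 was nearly undetected. Counts were found in 2 of 676 Endothelial wells, both of KO preparation 1 (74 counts, 0.780 CPM), and in 0 of 108 DoubleNegative wells, where the upper end of the exact interval is 3.36%. Among these wells 1 was smooth muscle-like and 1 lay in cluster 6. S1pr3 (chromosome 13, 51408639 to 51422797) did not pass the filter on low counts and was not tested.

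The enzymes and the exporter were detected in few wells. In each sum with counts of the enzymes Enpp2 or Sphk1, 1 well held at least 32.6% of them. Enpp2 was at 8.64 and 2.56 CPM in WT and at 17 and 4.13 CPM in KO Endothelial wells, and at 1.21, 7.08, 11.7 and 8.64 CPM in the DoubleNegative sums of WT 1, WT 2, KO 1 and KO 2. In the KO Endothelial sum of preparation 2, 1 well held 97.1% of the Enpp2 counts. The gates overlapped, as did the genotypes. Spns2 (chromosome 11, 72451638 to 72489904), which shares 3.21% of its exon length with the opposite-strand gene Mybbp1a, was at 12.5 and 0.0882 CPM in WT and at 6.17 and 4.96 CPM in KO Endothelial wells. These Spns2 counts came from 27 and 1 wells in WT and from 28 and 11 wells in KO. In DoubleNegative wells Spns2 was at 0.301 and 0 CPM in WT and at 2.86 and 0 CPM in KO. Sphk1 was at 0.676 and 0 CPM in WT and at 0.516 and 0.118 CPM in KO Endothelial wells, and at 8.29 and 2.02 CPM in WT and 18.9 and 0 CPM in KO DoubleNegative wells. A count of Sphk1 was found in 9 of 676 Endothelial wells (1.33%) and in 19 of 108 DoubleNegative wells (17.6%), of which thinning to 20000 counts left 0.740% and 9.26%.

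Within the endothelial gate, the members differed between clusters. S1pr1 was between 349 and 972 CPM in the 5 endothelial-like clusters and had a count in 90.9% to 100% of their wells. Lpar6 was between 128 and 232 CPM in the same clusters. Lpar1, in contrast, was at 94.8 CPM in cluster 0 (led by Aldh3a1, Frzb and Thbs1), 48.5 CPM in cluster 1 (Nt5e and Gkn3) and 28.4 CPM in cluster 2 (MHC class II genes), but had 1 count in the 33 wells of cluster 5 (Cd36, Fabp4 and Lrg1) and 0 counts in the 23 wells of cluster 6 (Hapln1 and Vcan). The wells of cluster 5 were instead those with the exporter: Spns2 was at 74.7 CPM there with a count in 21 of 33 wells (63.6%, 45.1 to 79.6%), against 2.20 to 15.3 CPM in the other endothelial-like clusters. This held in WT preparation 1 (12 of 19 wells) and in KO preparation 1 (7 of 11 wells). Enpp2 and Lpar4 were also highest in cluster 5, at 120 and 55.8 CPM, but 1 well held 92.2% of these Enpp2 counts and 78.4% of these Lpar4 counts. The clusters were made from the same counts, so that these levels are a description and no test was made.

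**Figure D2:**
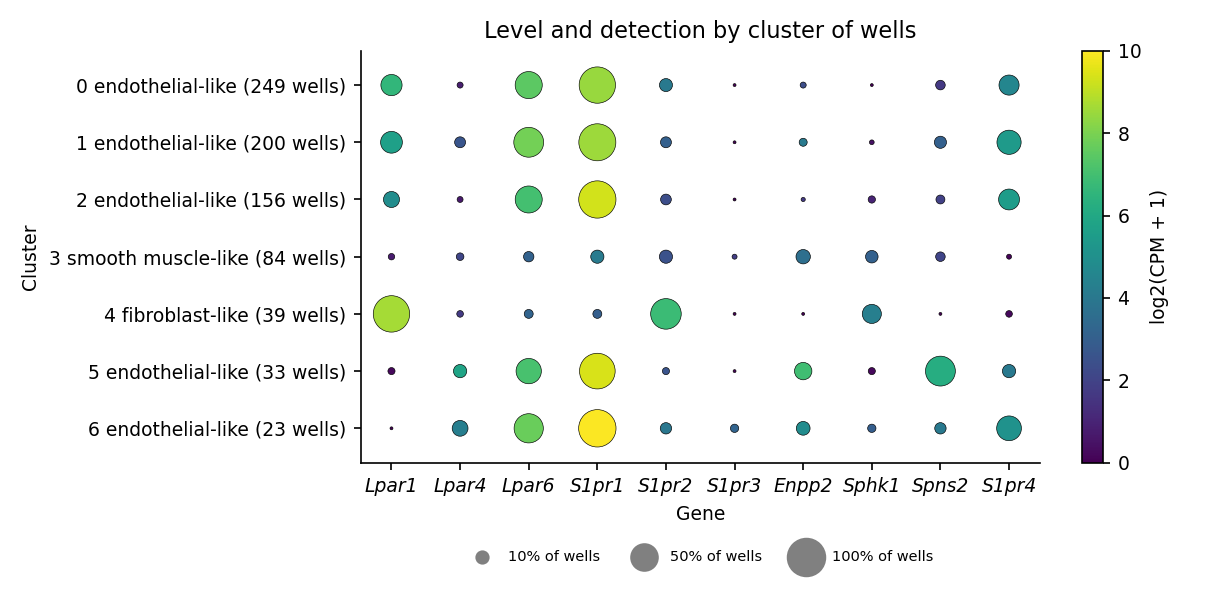
Level (colour, log2 of CPM + 1) and share of wells with a count (area) of the 9 genes and S1pr4 in the 7 clusters of wells. S1pr1 and Lpar6 fill all endothelial-like clusters, Lpar1 is split between clusters 0 to 2 and the fibroblast-like cluster 4, and Spns2 stands out in cluster 5.

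The gates were compared over all 8 sums with edgeR's quasi-likelihood test, a count model fitted to all genes at once, at a Benjamini-Hochberg adjusted p of 0.05. Of 12729 genes tested, 19% were called, 9.25% higher and 9.79% lower in DoubleNegative wells. Of the 9 members 8 were tested and 2 were called, S1pr1 and Lpar6, both lower in DoubleNegative wells. Lpar6 fell by 4.15 on the log2 scale (SE 0.87, adjusted p = 0.0116), and under all alternatives its adjusted p lay between 1.34e-20 and 0.0498. S1pr1 fell with adjusted p = 0.000139, and its fitted log2 fold change of -13.83 depends on the small count that the model adds to sums without counts. S1pr2 (1.85 ± 0.65 SE, adjusted p = 0.0833) and Sphk1 (4.45 ± 1.51, adjusted p = 0.0738) were higher in DoubleNegative wells in the fit but did not pass, although DESeq2 called both (adjusted p = 0.0246 and 0.0110). The values for Lpar1 (0.93 ± 0.73, adjusted p = 0.446), Lpar4 (1.58 ± 1.44, 0.514), Enpp2 (-0.20 ± 0.87, 0.908) and Spns2 (-3.11 ± 1.53, 0.208) were within the spread between sums. The median log2 fold change of the 8 members was 0.36, against -0.15 over all genes tested.

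Other genes of the pathway, 55 from lists of receptors, metabolic enzymes and signalling proteins, were read from the same fit. Of 45 tested, 12 were lower and 3 higher in DoubleNegative wells (33.3%, against 19% of all genes). S1pr4, an S1P receptor known from lymphocytes, was at 39 and 22.3 CPM in WT and at 29.8 and 41.4 CPM in KO Endothelial wells, and at 0 in all 4 DoubleNegative sums. It had a count in 218 of 676 Endothelial wells (32.2%, 28.7 to 35.9%), adjusted p = 0.00106 in edgeR's test. Per kilobase it was at 13.9 ± 3.67 CPM per kb in Endothelial wells, within the range of Lpar1. The 7 immune markers together were at 0.300 to 3.26 CPM in the Endothelial sums, with Lyz2, Itgam and Cd3e at 0 in all 4. The other receptor genes measured, Lpar2, Lpar3, Lpar5, S1pr5, Gpr35 and P2ry10, were at 2.51 CPM or lower in every Endothelial sum.

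On the metabolic side, Acer2, an alkaline ceramidase that yields sphingosine for S1P synthesis, was at 137 and 166 CPM in WT and at 198 and 199 CPM in KO Endothelial wells and at 0 in all DoubleNegative sums (edgeR adjusted p = 0.000139). In all, 7 of 17 tested genes of sphingolipid supply were lower in DoubleNegative wells (9.79% of all genes were) and none was higher, among them Sptlc1, Sptlc2 and Sptssa, subunits of serine palmitoyltransferase, the first enzyme of the route. Sphk2, the other sphingosine kinase, was at 8.15 to 19.2 CPM in the Endothelial sums and at 8.10 to 24.1 CPM in the DoubleNegative sums and was not called (edgeR adjusted p = 0.613), and 13% of its exon length is shared with Dbp on the opposite strand. Of the signalling genes, 3 of 19 were lower (Arrb1 by the largest amount, log2 fold change -2.97, SE 0.63, adjusted p = 0.0120) and 3 higher, against 9.79% and 9.25% of all genes. The higher ones were Tiam1, a Rac exchange factor (8.05, SE 1.78, adjusted p = 0.0144), Gnai1, a Gi subunit (6.17, SE 0.82, adjusted p = 0.00127), and Rock1, a serine/threonine kinase (2.41, SE 0.33, adjusted p = 0.00145). Tiam1 was at 0.212 CPM in the DoubleNegative sum of KO preparation 1 and at 3.04 to 17.3 CPM in the other 3.

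KO and WT were compared within the endothelial gate to ask whether endothelial loss of Amotl2 goes with other levels of these genes. Of 12702 genes tested by edgeR, 0% were called (468 had an unadjusted p under 0.05, and DESeq2 called 37), and no member was called. Lpar1 had the lowest p of the members. It was 2.41-fold higher in KO than WT in preparation 1 and 1.95-fold higher in preparation 2, and its 2 KO sums lay above its 2 WT sums. With wells thinned to 20000 counts the genotypes overlapped, at 26.4 and 66 CPM in WT and at 56.8 and 81.5 CPM in KO. Its log2 fold change was 1.11 (SE 0.36), with an unadjusted p of 0.0130 and an adjusted p of 0.9995 over all genes in edgeR's test. Over the alternatives its adjusted p lay between 0.00261 and 1.00, and the lowest value was that without WT preparation 2, the WT sum with the higher Lpar1 level, where the log2 fold change was 1.54. It was 0.76 without WT preparation 1, 0.77 without KO preparation 2 and 0.68 with thinned wells. DESeq2 gave 1.10 (adjusted p = 0.478).

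Other measures are given beside Lpar1 for these sums. The 9 fibroblast markers together were at 338 and 315 CPM in WT and at 633 and 321 CPM in KO Endothelial wells, with a median log2 fold change of 0.80, and Dpt was at 0 in KO preparation 2. In fibroblast-like wells there were 7.32 counts of Lpar1 per 1000 counts of these markers, against 87.8, 156, 113 and 298 in the Endothelial sums of WT 1, WT 2, KO 1 and KO 2. The 10 genes raised by tissue dissociation, such as Fos and Hspa1b, were at 3187 and 5947 CPM in WT and at 2844 and 2561 CPM in KO. Their median log2 fold change was -0.81. In edgeR's test 3 of the 9 fibroblast markers and 4 of these 10 genes had an unadjusted p under 0.05. Over all genes these were 468 of 12702, and no gene of either list was called. The part of either list in the Lpar1 values was not tested. Outside cluster 2 the log2 fold change of Lpar1 was 1.07 (SE 0.37, adjusted p = 0.9999 in edgeR's test). Within cluster 0 Lpar1 was at 147 and 38.5 CPM in WT and at 96.9 and 137 CPM in KO, and within cluster 1 at 4.65 and 69.8 CPM in WT and at 48.8 and 69.6 CPM in KO, so that the genotypes overlapped in both clusters.

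The other members gave smaller differences relative to their error. S1pr1 was lower in KO in both preparations (0.647-fold and 0.896-fold), with a log2 fold change of -0.42 (SE 0.28). This S1pr1 value was -0.24 (SE 0.25) outside cluster 2. With 1 sum left out it ranged from -0.70 to -0.076, the latter without WT preparation 1. Lpar6 was at 0.24 (SE 0.29). Lpar4 (-1.15, SE 0.82), S1pr2 (0.60, SE 0.69), Enpp2 (0.88, SE 0.85), Sphk1 (-0.11, SE 1.92) and Spns2 (-0.17, SE 1.34) had errors as large as or close to their log2 fold changes. The adjusted p of each was 0.9995 in edgeR's test. None of the 45 other pathway genes tested was called. The median log2 fold change was 0.06 over the 8 members and 0.00 over all genes. Among Endothelial wells of KO preparation 1, Lpar1 had a count in 26.8% of 231 wells with EYFP and in 18.3% of 71 wells without. At 20000 counts these shares were 20.8% and 16.9%. In KO preparation 2 they were 44.7% of 76 and 53.8% of 13 wells (36.8% and 38.5% at 20000 counts). The Lpar1 level was 62.9 CPM in wells with EYFP and 108 CPM in wells without in preparation 1. In preparation 2 it was 95.9 and 94.2 CPM.

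**Figure D3:**
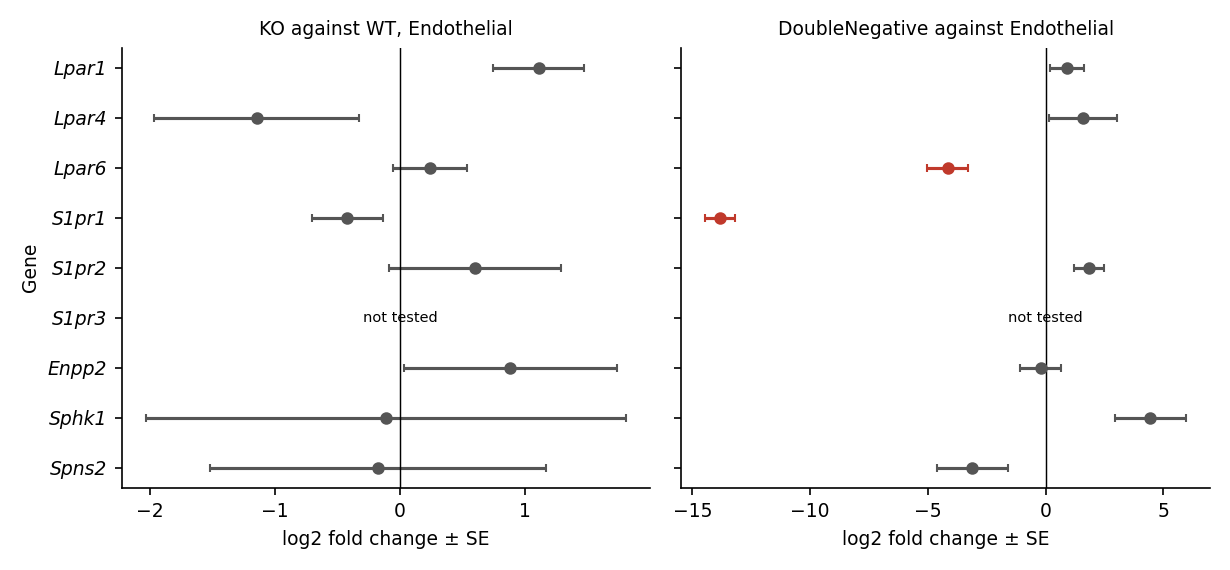
Fitted log2 fold change with its standard error for KO against WT Endothelial wells (left) and for DoubleNegative against Endothelial wells (right), with red points at an adjusted p under 0.05. S1pr1 and Lpar6 are called on the right at -13.83 and -4.15 and no gene is called on the left, where Lpar1 lies at 1.11.

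In DoubleNegative wells, 0 of 12729 genes were called between KO and WT by edgeR (0%; 1130 had an unadjusted p under 0.05), and DESeq2 called 189 genes, of which none was a member. Lpar1 was lower in KO in preparation 1 (0.532-fold) and higher in preparation 2 (5.57-fold, with 1 well carrying it in each sum of that preparation). Within the fibroblast-like DoubleNegative wells of preparation 1, Lpar1 was higher in KO, at 514 CPM in 9 wells against 360 CPM in 26 WT wells. This difference was not tested. The difference of the KO effect between the gates was tested as an interaction, in which edgeR called 0% of 12729 genes and no member (657 had an unadjusted p under 0.05, and DESeq2 called 46). For Lpar1 that difference, Endothelial minus DoubleNegative, was 1.56 on the log2 scale (SE 1.45, edgeR adjusted p = 1.00).

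The Endothelial wells that carried Lpar1 were then described. A count was found in 177 of 676 wells (26.2%, 22.9 to 29.7%): in 41 of 235 wells (17.4%) and 20 of 50 wells (40.0%) of WT preparations 1 and 2, and in 75 of 302 (24.8%) and 41 of 89 (46.1%) of KO. In each genotype the share was higher in preparation 2, also at 20000 counts per well (13.6% and 34.0% in WT, 19.9% and 37.1% in KO). With 1 count or more, the KO share lay above the WT share in each preparation. With 5 counts or more, the share was 12.8% in WT and 19.9% in KO of preparation 1. In preparation 2 the order was the other way, with 30.0% in WT and 27.0% in KO. These differences were not tested. Among carrying wells the median level was 58.7 and 94.1 CPM in WT and 148 and 89.9 CPM in KO, with highest wells of 545, 610, 1844 and 827 CPM. The 5 highest wells held 61.7% and 62.8% of the Lpar1 counts in WT and 33.8% and 47.0% in KO.

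**Figure D4:**
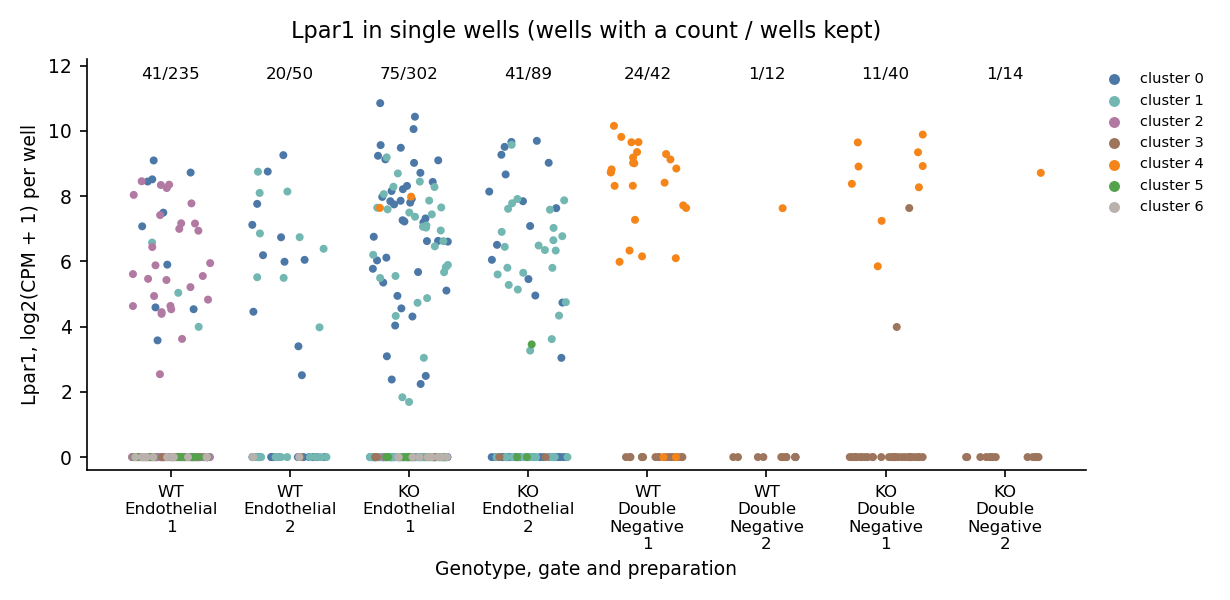
Lpar1 in every kept well as log2(CPM + 1), by genotype, gate and preparation, coloured by cluster, with the number of wells with a count above each column. Carrying Endothelial wells range over more than 2 orders of magnitude and belong mostly to clusters 0, 1 and 2, and those of the DoubleNegative gate mostly to the fibroblast-like cluster 4.

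Of the 177 carrying wells, 79 lay in cluster 0, 67 in cluster 1, 28 in cluster 2, 2 in the fibroblast-like cluster 4 and 1 in cluster 5. They carried the other main receptors as well. S1pr1 had a count in 98.9% of them, against 95.2% of the wells without Lpar1. At 20000 counts per well these shares were 92.1% and 91.2%. Lpar6 was more frequent in carrying wells in each of the 4 sums: at 20000 counts per well it had a count in 73.2% against 44.3% in WT preparation 1, 85.0% against 66.7% in WT preparation 2, 65.3% against 31.3% in KO preparation 1 and 82.9% against 64.6% in KO preparation 2. All 3 receptors were found together in 139 of 676 wells (20.6%), and S1pr1 alone of the 3 in 254 (37.6%). The level of S1pr1 was lower in carrying wells of each sum. It was 511 against 617 CPM in WT preparation 1 and 316 against 402 CPM in WT preparation 2. In KO it was 271 against 432 CPM in preparation 1 and 266 against 408 CPM in preparation 2.

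Amotl2 followed the same pattern as Lpar6. At 20000 counts per well it was found in 51.2% of carrying and 34.0% of other wells in WT preparation 1, in 60.0% and 43.3% in WT preparation 2, in 49.3% and 18.5% in KO preparation 1, and in 51.2% and 29.2% in KO preparation 2. Carrying wells were deeper, with a median of 184380 counts against 149051, so that the thinned shares are given here. They also had more genes with a count at full depth, with a median of 4786 against 3550, and more in each of the 4 sums. Carrying was called on the full counts. The part of gene number in the shares of Lpar6, Amotl2 and Dcn was not tested. Dcn, the proteoglycan decorin and a leading fibroblast marker, was also more frequent in carrying wells of each sum (24.4% against 13.4%, 55.0% against 10%, 36.0% against 11.9% and 31.7% against 16.7%). Its level, however, was lower in carrying than in other wells of WT preparation 1 (89.7 against 126 CPM) and higher in the other 3 sums (192 to 446 against 11.8 to 66.6 CPM). Fibroblast-like wells had 29545 CPM. The 9 fibroblast markers together were at 261 CPM in carrying and 360 CPM in other wells of WT preparation 1, at 511 and 207 CPM in WT preparation 2, at 1170 and 407 CPM in KO preparation 1 and at 412 and 219 CPM in KO preparation 2, so that they were higher in carrying wells of 3 sums. Col3a1 was higher in carrying wells of all 4 sums (19.7 against 18.1, 155 against 49.5, 237 against 87.7 and 44.9 against 30.8 CPM), and Lum in 3. Col1a1 was at 0 in the carrying wells of 3 sums and at 78 CPM in those of KO preparation 1, against 4369 CPM in fibroblast-like wells. The 2 fibroblast-like wells of the Endothelial gate were both among the carrying wells of KO preparation 1. Their part in the fibroblast marker levels of that sum was not tested. Smooth muscle markers were higher in carrying wells of all 4 sums, by the median of their summed level per well. These medians were 255 against 96.9 CPM in WT preparation 1 and 256 against 81.8 CPM in WT preparation 2. In KO they were 295 against 59.2 CPM in preparation 1 and 168 against 41.0 CPM in preparation 2. No carrying well lay in the smooth muscle-like cluster. The endothelial markers were lower in carrying wells of all 4 sums, by the same measure. Their medians were 16723 against 17555 CPM in WT preparation 1 and 13245 against 16544 CPM in WT preparation 2. In KO they were 13311 against 15071 CPM in preparation 1 and 13658 against 15593 CPM in preparation 2. Over all Endothelial wells the median was 13974.8 CPM in carrying and 16037.7 CPM in other wells.

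**Figure D5:**
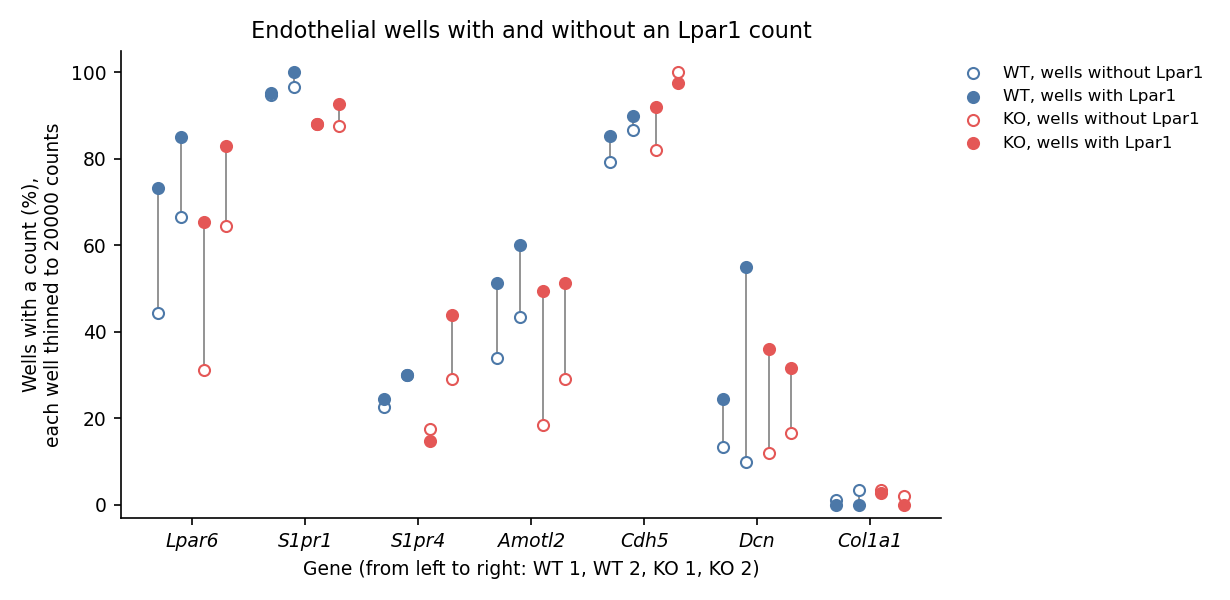
Share of Endothelial wells with a count of 7 genes, each well thinned to 20000 counts, in wells with (filled) and without (open) an Lpar1 count, for each genotype and preparation. Lpar6, Amotl2 and Dcn are more frequent in wells with Lpar1 in all 4 sums, whereas Col1a1 is at or below 3.52% in both kinds of well.

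The genes most like each receptor across Endothelial wells were ranked by the mean, over the 4 sums, of the correlation of log2(CPM + 1) between wells, among 8586 genes with a count in at least 10% of the wells of each sum. For Lpar1 they were Thbs1 (mean r = 0.49), Aldh1a1 (0.43), Ctgf (0.42), Bmp4 (0.40) and Txndc5 (0.39). Thbs1 encodes the matrix protein thrombospondin 1, Ctgf a connective tissue growth factor and Bmp4 a bone morphogenetic protein. For Lpar6 they were Edn1 (0.40), which encodes endothelin, Thbs1 (0.32), Bmp4 (0.31), Acer2 (0.30) and 1500015O10Rik (0.29), so that Thbs1 and Bmp4 stood in both lists. For S1pr1 they were Ly6e (0.33), Mmrn2 (0.28), Cldn5 (0.28), Slc9a3r2 (0.27) and Ly6a (0.26), of which Cldn5 encodes a tight junction protein and Mmrn2 an endothelial matrix protein. Wells of 1 sum share plate, depth and cell type mixture, and these values are a description. For S1pr3 no such ranking was possible, since it had no count in 3 of the 4 sums.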

How the data were processed

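Per the labels and the methods of the study, the authors used STAR 2.7.7a for alignment (GRCm38 plus EYFP and spike-in sequences), Picard 2.22.0 for the removal of duplicates and HTSeq 0.9.1 for counting. The deposited values are raw counts per gene and well, without molecular identifiers. The annotation release and strand setting are not given in the sources used here. Spike-in lines (1.25% of counts) and summary lines (46.9%) were left out.

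Wells with at least 20000 gene counts and 500 genes were kept, and summed per genotype, gate and preparation. Sums were tested with edgeR 4.0.16 (glmQLFTest, TMM, filterByExpr, R 4.3.3), with SE taken as the log2 fold change over the square root of F. P-values measure the spread between preparations. Wells were clustered with Seurat 5.3.0 (2000 variable genes, 30 dimensions, resolution 0.5) and named from marker lists. No doublet caller was run. Alternatives were the replicate block, RLE factors, DESeq2 1.42.0, no filter, each sum left out, deeper wells (at least 100000 counts), wells thinned to 20000 counts, wells of matching cluster and, added after seeing the data, wells outside cluster 2 and members without their highest well. Tests were checked on simulated counts. The labels number the sorts of each genotype but do not say that WT and KO sorts of the same number were 1 batch. WT and KO wells shared a plate in preparation 2 only. Deviations of same-preparation sums correlated by 0.14 (Endothelial) and 0.08 (DoubleNegative) over 12729 genes. Gene positions and exon lengths come from GENCODE M21 (GRCm38), which located all 9 members. All 9 members are named, the 3 other pathway genes with the largest called change in each direction (further ones, chosen after their values were seen, are named as examples of their list), and the 5 genes most like each of 3 receptors. The members and lists were chosen with earlier results of these data known, and Lpar1, Lpar6 and S1pr1 are in gene lists the study drew from these cells.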

Additional observations from a re-analysis of the deposited data

How the results depend on the processing

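S1pr1 and Lpar6 remained lower in DoubleNegative wells under every alternative run. Of 2423 genes called between the gates, the fit with the replicate block called 1779, and leaving out 1 sum of each gate left 1004 to 1885, with the lowest counts without KO preparation 1 (1004) and without KO preparation 2 (1149). The counts between KO and WT moved from 0 in Endothelial wells to 1 with the replicate block, RLE factors or wells of matching cluster, 8 with thinned wells, 37 with DESeq2, 104 with no filter and 5 to 311 with 1 sum left out (311 without WT preparation 1, 221 without WT preparation 2, 35 without KO preparation 2), in DoubleNegative wells to 189 with DESeq2, 218 with no filter and 0 to 34 with 1 sum left out, and for the difference between gates to 46, 163 and 0 to 21 (34 and 21 without WT preparation 1). With 1 sum left out the lone sum of that group was taken to vary like the others. Of the members, Lpar1 alone was called between KO and WT, without WT preparation 2 (1.54, adjusted p = 0.00261, edgeR). The replicate block changed no member's call. It turned the KO difference of Sphk1 to 0.48 and of Spns2 to 1.51 and the gate difference of Lpar4 to -0.32, none of them called. Other turns of direction, none called, were the KO difference of Enpp2 with thinned wells (-0.78) and outside cluster 2 (-0.22), the gate difference of Enpp2 with thinned wells (0.18) and that of Lpar4 in deeper wells (-5.59). With 1 sum left out, the KO differences ranged from -0.042 to 0.57 for Lpar6, -0.054 to 1.74 for S1pr2, -0.33 to 2.0 for Enpp2, -1.0 to 0.46 for Sphk1 and -1.14 to 5.90 for Spns2, the gate differences from -1.08 to 1.57 for Lpar1, -4.20 to 2.35 for Lpar4 and -1.34 to 0.84 for Enpp2, and the values for Lpar1 from -1.36 to 3.27 between KO and WT DoubleNegative wells and from -2.46 to 2.84 for the difference between gates. S1pr2 was called between the gates without WT preparation 2 (2.76, adjusted p = 0.0122), with DESeq2 and with no filter, and Sphk1 with DESeq2, with no filter and outside cluster 2 (7.34, adjusted p = 0.0326). Tiam1 lost its call with WT preparation 1, WT preparation 2 or KO preparation 2 left out, and Arrb1 in deeper wells. The share of Endothelial wells with Lpar1 lay between 19.1% and 28.9% under all settings. The cause of these moves was not tested. The DoubleNegative sums of preparation 2, of 12 and 14 wells, limit what can be seen there: 3 counts amount to 3.04 and 3.24 CPM.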

Other observations

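Of the lipid phosphate phosphatases, which break down LPA and S1P outside the cell, Ppap2a and Ppap2b were at 185 CPM or more in every sum of both gates, above Ppap2c. Ppap2a was at 481 and 478 CPM in WT and at 588 and 459 CPM in KO Endothelial wells, and at 185 to 390 CPM in the DoubleNegative sums. Ppap2b was at 188 to 268 CPM in the Endothelial sums and at 944 CPM in the DoubleNegative sum of WT preparation 1, the sum with most fibroblast-like wells, against 212 to 391 CPM in the other 3. Ppap2c was lower in DoubleNegative wells (log2 fold change -2.38, SE 0.72, edgeR adjusted p = 0.0498), at 0 to 10.4 CPM against 21.5 to 51.6 CPM. The S1P lyase Sgpl1 was at 13.2 to 25.5 CPM in the Endothelial sums and at 7.08 to 48.7 CPM in the DoubleNegative sums. Mfsd2b, the S1P exporter of red cells and platelets, was at 0.875 CPM or lower in the Endothelial sums, and Apom, the plasma carrier of S1P, had counts in WT preparation 1 only (0.150 CPM).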
